A study of Mus musculus with 16 samples.

Results

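Cortical thick ascending limb cells were taken from 4 single-cell RNA sequencing libraries of mouse kidney, and 2590 of 24975 kept cells met the rule. The thick ascending limb is the stretch of the loop of Henle that carries salt out of the tubule fluid while holding water back, and its upper part runs through the cortex to the macula densa. Members were chosen by their measured UMIs (unique molecular identifiers, one per captured RNA molecule) of 12 genes. A cell was a member when Slc12a1, Umod, Egf and Wfdc15b together made up at least 1% of its UMIs, Slc12a3 and Aqp2 together made up less than 0.2%, and Kng2, Slc5a1 and Cldn16 together had more UMIs than Nccrp1, Ptger3 and Egfl6. The same rule with the last comparison turned round gave 1364 medullary thick ascending limb cells, and 209 cells with equal sums were left undecided.

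The libraries were 2 of wild type kidney and 2 of Gulo-/- kidney, all on the C57BL/6 strain. The Gulo product, gulonolactone oxidase, makes vitamin C, and mice without it depend on their diet for the vitamin. The labels give no age, sex or diet and do not say that the replicates came from different mice; the p-values therefore cover only the spread among these 4 libraries, which may be technical. The wild type libraries held 21 (replicate 1) and 148 members (replicate 2) and the Gulo-/- libraries 76 and 2345, so that 90.5% came from a single library. Their summed depth was 88970, 834933, 272677 and 12539774 UMIs, in that order of libraries, which is kept wherever 4 values are given. Gulo had 0 UMIs in the members of every library, so the genotype could not be checked in them.

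Several features differed between the libraries and are given before the results. Wild type replicate 1 and Gulo-/- replicate 2 carried Xist and no Ddx3y. The kept cells of the other 2 carried Ddx3y and 5 or fewer Xist UMIs, so each genotype had a female and a male library. Both libraries numbered 1 were shallow, with 1595 and 1877 kept cells against 7541 and 13962. The wild type libraries had 986 barcodes in common, and independent barcodes would give 33.5. From the second of them 817 cells that otherwise passed, 10 of them cortical, were dropped for that reason. In wild type replicate 2 the shared barcodes carried 2161 Xist and 8 Ddx3y UMIs, against 5 and 1793 in its kept cells. In the other pairs of libraries shared barcodes numbered from 9 to 282 against 8.27 to 269.9 expected, and 1 cortical barcode was shared. Median mitochondrial shares of the members were high, at 32.7%, 38.0%, 38.4% and 24.9% of UMIs.

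In the thick ascending limb, the cotransporter NKCC2 (Slc12a1) brings sodium, potassium and chloride into the cell across the luminal membrane. Transport across the blood side of the cell then passes the salt on. The resulting voltage drives calcium and magnesium between the cells through a pore that claudin-16 (Cldn16) helps to form in the cortical part, while claudin-10 (Cldn10) forms a sodium-selective path in the medullary part. The segment is also the source of urinary uromodulin (Umod) and a main renal source of epidermal growth factor (Egf), which acts on magnesium transport downstream.

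The genes that chose the cells were high in every library, and their levels are a description with no test. A level is given as CPM, the UMIs of a gene per 1000000 UMIs of the summed cells of a library. Umod stood at 12128, 13760, 16903 and 15732 CPM in the cortical cells. Slc12a1 stood at 3878, 3224, 3924 and 4147 CPM. Cldn16 stood at 214, 143, 128 and 139 CPM in cortical cells and at 22.0, 27.6, 0 and 22.1 in medullary cells. Kng2, which encodes a kininogen and carried most of the cortical UMIs used for the split, stood at 1450, 970, 1738 and 1417 CPM. Slc5a1, a sodium-glucose cotransporter, averaged 239 ± 127 (SD, n = 4 libraries) in cortical and 35.5 ± 16.1 in medullary cells. All 4 markers given for the cell type (Umod, Slc12a1, Cldn16 and Kng2) were thus present in every library, but all 4 had also been used to choose it.

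**Figure D1:**
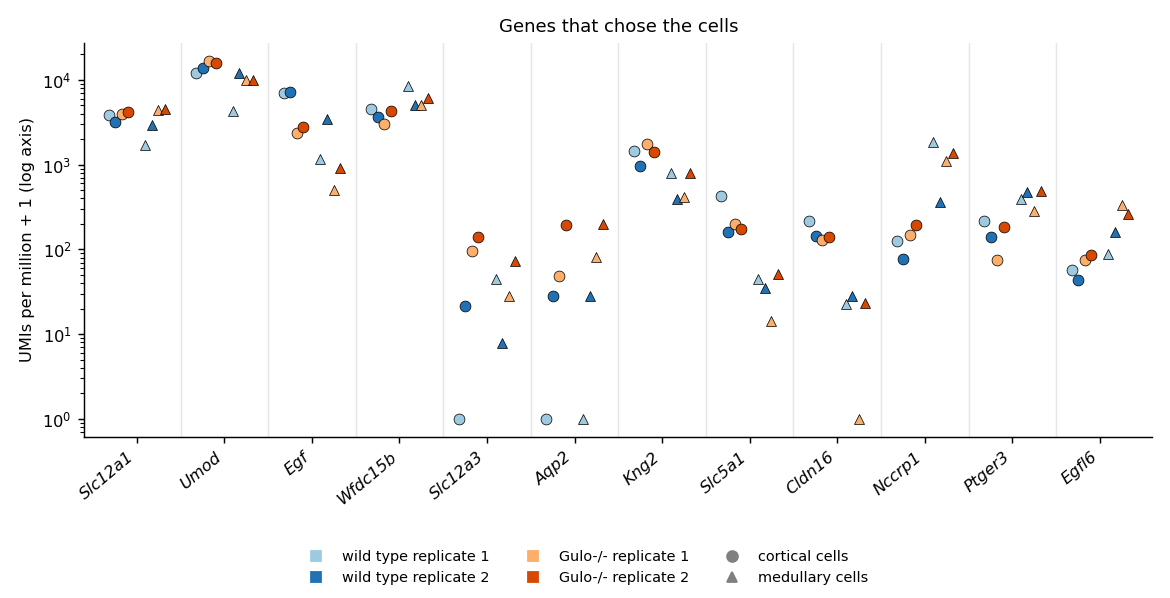
CPM plus 1 (log axis) of the 12 genes that chose the cells, for cortical (circles) and medullary (triangles) thick ascending limb cells of each of the 4 libraries. Umod, Slc12a1 and Wfdc15b were high in both sets, Kng2, Slc5a1 and Cldn16 were higher in cortical cells by construction, and Egf in cortical cells was at 7059 and 7215 in wild type against 2384 and 2786 in Gulo-/-.

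The line between cortical and medullary cells ran through a range of cells. Of the members, 256 passed by a single UMI, and 1523 passed by 5 or more. Pth1r, the parathyroid hormone receptor and no gene of the rule, stood at 79.4 CPM in the members that passed by 1 UMI, at 77.8 in the undecided cells and at 47.7 in medullary cells that missed by 1. It stood at 278 in members with a margin of 5 or more. Cldn10 ran the other way, at 1178, 1293, 1422 and 641 CPM in the same 4 sets. At the lower limit of 1% for the thick ascending limb genes, 188 members stood just above the limit and 191 other cells at 0.75 to 1%, with Pth1r at 193 and 203 CPM. Beyond the 0.2% limit for Slc12a3 and Aqp2, 481 other cells stood at 0.2 to 0.4%. Their Pth1r was at 92.7 and their Tmem52b, no gene of the rule, at 1183 CPM, against 227 and 432 in all members. Of the members, 1718 had UMIs of Slc12a3 or Aqp2. These counts pool the 4 libraries and are dominated by Gulo-/- replicate 2.

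Genes called between cortical and medullary cells of the same library included some of salt transport, hormone receptors, secreted proteins and metabolism. Cortical cells had more of the Wnt inhibitor gene Sfrp1, of Pth1r, of the kinase gene Wnk1 and of klotho (Kl). Medullary cells had more Cldn10, more of the sodium pump subunit gene Fxyd2 and more of the glycolytic gene Aldoc. The test was edgeR's quasi-likelihood F test on UMI sums with the library as a block, the 12 genes of the rule left out, and Benjamini-Hochberg adjustment over 2179 genes. It called 146 genes (6.7%), of which 88 (4.04%) were higher in cortical and 58 (2.66%) in medullary cells. The split was made from UMIs of the same cells, so these counts describe the 2 sets and give no independent support that they are separate cell types. Without the library block the count was 13.

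Of the tubule segments that follow, connecting and distal convoluted tubule markers summed higher in the cortical cells of each library, and principal cell markers in the medullary cells. The 8 principal cell markers summed to 0, 70.7, 114 and 354 CPM in cortical and to 22.0, 82.7, 201 and 359 in medullary cells. The 6 connecting tubule markers summed to 2327, 3627, 5046 and 4605 CPM in cortical cells, with 3, 2, 3 and 0 of them at 0, and to 198, 2137, 1247 and 1759 in medullary cells. Only 2 of the 6 could be tested, and 1 of these, S100g, was called higher in cortical cells (log2 0.70 ± 0.17, adjusted p = 0.0145). The 6 distal convoluted tubule markers summed to 405, 304, 359 and 506 in cortical and to 220, 262, 174 and 338 in medullary cells. They include Slc12a3, which the rule limited in both sets. It stood at 0, 20.4, 95.4 and 140 in cortical and at 43.9, 6.89, 26.8 and 72.8 in medullary cells. The authors' deposited table lists Sfrp1, Wnk1 and Tmem52b under the cluster DCT1, and Kl, Clu, Wnk1 and Tmem52b under DCT2. Of the genes that counted towards membership, it lists Kng2, Egf, Umod and Wfdc15b under DCT1 too, and Kng2 also under DCT2. Kng2 was found in 94.9% of DCT1 cells against 36.7% of others. The part of such cells in the differences that follow was not tested.

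Genes of salt transport were called in both directions. Fxyd2, the gamma subunit of the sodium pump, was at 6542, 4895, 5233 and 6092 in cortical cells and at 19296, 9204, 15023 and 14487 in medullary cells (log2 -1.24 ± 0.10, adjusted p = 1.82e-08). Every medullary value lay above every cortical one. Of 10 tested genes of thick ascending limb salt transport, 2 were higher in cortical cells, among them the potassium channel subunit gene Kcnj16 (log2 0.63 ± 0.16), and 3 in medullary cells, among them Fxyd2 and the carbonic anhydrase gene Car2 (log2 -1.11 ± 0.18, not lower in every library). The median of the 10 was a log2 difference of 0.06, against -0.01 for all genes tested.

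Claudins and genes of calcium and magnesium handling were divided in the same way, with 3 of 10 tested members higher in each set and a median of 0.10. Cldn10 stood at 854, 758, 572 and 756 CPM in cortical cells and at 1646, 1234, 1408 and 1698 in medullary cells (log2 -0.97 ± 0.11, adjusted p = 4.05e-06). Each medullary value was above each cortical value, and the call held under 12 of 13 alternatives. Such counts of alternatives for segments and genotype include a limit of 1000 UMIs per cell, which repeated the main fit. Pth1r was at 405, 410, 176 and 214 in cortical cells and at 0, 103, 53.7 and 26.7 in medullary cells (log2 2.87 ± 0.22, adjusted p = 9.77e-09). Its cortical values were above all medullary values, and within cortical cells both wild type libraries were above both Gulo-/- libraries (log2 -1.10 ± 0.29, adjusted p = 0.0796 between genotypes). The authors' deposited table lists Pth1r only under the proximal tubule cluster PT2 (75% of cells against 39.1% of others). In all kept cells Pth1r stood at 187, 272, 150 and 90.5 CPM, also lower in both Gulo-/- libraries. The part of proximal tubule RNA in its values was not tested. Tmem52b was at 596, 316, 491 and 438 in cortical cells and at 22.0, 96.5, 0 and 79.2 in medullary cells (log2 2.61 ± 0.26, adjusted p = 8.14e-06). Tmem207 had been listed as a cortical marker but was higher in medullary cells (log2 -1.27 ± 0.27, adjusted p = 0.00522). Of the 12 cortical marker genes 4 were outside the rule and tested; Pth1r and Tmem52b were higher in cortical cells and Tmem207 was lower.

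Of 5 tested genes of hormone receptors and the cAMP pathway, 2 were higher in cortical cells, Pth1r and the glucagon receptor Gcgr, and the median was -0.08. Gcgr stood at 124, 108, 55.0 and 47.1 CPM in cortical cells and at 0, 62.0, 40.2 and 23.3 in medullary cells (log2 1.07 ± 0.22, adjusted p = 0.00312). The groups of libraries overlapped between segments, while each library on its own had the higher value in cortical cells. Wnk1, a kinase gene of the pathway that regulates NKCC2, was at 405, 411, 286 and 354 in cortical cells and at 43.9, 75.8, 67.1 and 107 in medullary cells (log2 1.97 ± 0.18, adjusted p = 9.53e-08). The Wnk1 call held under all 12 alternatives that could test it. Kl, the co-receptor of fibroblast growth factor 23, was at 112, 125, 114 and 174 in cortical cells against 22.0, 48.3, 13.4 and 61.4 in medullary cells (log2 1.58 ± 0.17, adjusted p = 1.41e-06).

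Of 10 tested genes of secreted and luminal proteins 5 were higher in cortical cells and none lower, with a median log2 difference of 1.07. Wfdc2, a secreted protease inhibitor homolog, stood at 2293, 1379, 2967 and 2530 CPM in cortical cells and at 505, 951, 711 and 1068 in medullary cells (log2 1.39 ± 0.24, adjusted p = 0.0209). Spp1, which encodes osteopontin, was at 3248, 2295, 4074 and 5913 in cortical cells and at 988, 1448, 2924 and 4387 in medullary cells (log2 0.76 ± 0.16, adjusted p = 0.0132). Each library had more Spp1 in its cortical cells, but the values of the 2 sets overlapped across libraries. Clu (clusterin), Fgf9 and Mfge8 were the other 3, with log2 differences of 1.53, 1.37 and 1.40, and Mfge8 was not higher in every library. Sfrp1, which was in none of the lists, was at 967, 502, 121 and 125 in cortical cells and at 0, 68.9, 13.4 and 14 in medullary cells. Its log2 difference of 3.29 ± 0.22 was the largest among the named genes (adjusted p = 1.88e-09).

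Of 11 tested nephron transcription factor genes 4 were higher in cortical cells and none was higher in medullary cells. Foxq1 stood at 89.9, 97.0, 158 and 73.0 CPM in cortical cells and at 0, 27.6, 26.8 and 13.5 in medullary cells (log2 2.46 ± 0.23, adjusted p = 1.54e-07). It had been listed as a medullary marker. Hoxd8, Tfcp2l1 and Mecom were higher by 0.98, 0.93 and 0.54 on the log2 scale. Mecom lost its call when any 1 library was left out.

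Nuclear-encoded genes of the respiratory chain were higher in medullary cells where they were called, by small amounts. Of 55 nuclear-encoded respiratory chain genes 51 had a negative difference (higher in medullary cells), with a median log2 difference of -0.14. Of these 55 genes 3 were called (Cycs, Atp5j and Atp5o), against 146 (6.7%) of all 2179 tested genes. Of 12 tested mitochondrially encoded genes 7 were positive and 5 negative, and mt-Co1 was called higher in cortical cells (log2 0.37 ± 0.07, adjusted p = 0.0015). Of 33 tested genes of the citrate cycle and fatty acid oxidation 0 were called by edgeR, with a median of -0.07. Of 18 tested genes of glycolysis and hypoxia 3 were higher in medullary cells and 1, Ndrg1, in cortical cells, with a median of -0.18. Aldoc, a glycolytic aldolase, was at 67.4, 15.6, 25.7 and 24.1 CPM in cortical cells and at 176, 48.3, 80.5 and 108 in medullary cells (log2 -2.0 ± 0.21, adjusted p = 9.9e-07). Each library had the higher Aldoc value in its medullary cells. Cox7a1, a subunit of cytochrome oxidase, was at 56.2, 65.9, 88.0 and 106 in cortical and at 263, 89.6, 483 and 325 in medullary cells (log2 -1.57 ± 0.19, adjusted p = 7.33e-06). Eno1, Ldha and Pfkp were the 3 glycolytic genes of that list higher in medullary cells, by 0.63, 0.68 and 0.59, Pfkp not in every library. Ptgds, which encodes a prostaglandin D synthase, had the largest medullary difference among the named genes, at 56.2, 16.8, 47.7 and 42.1 in cortical and 198, 27.6, 107 and 264 in medullary cells (log2 -2.36 ± 0.21, adjusted p = 1.04e-07).

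**Figure D2:**
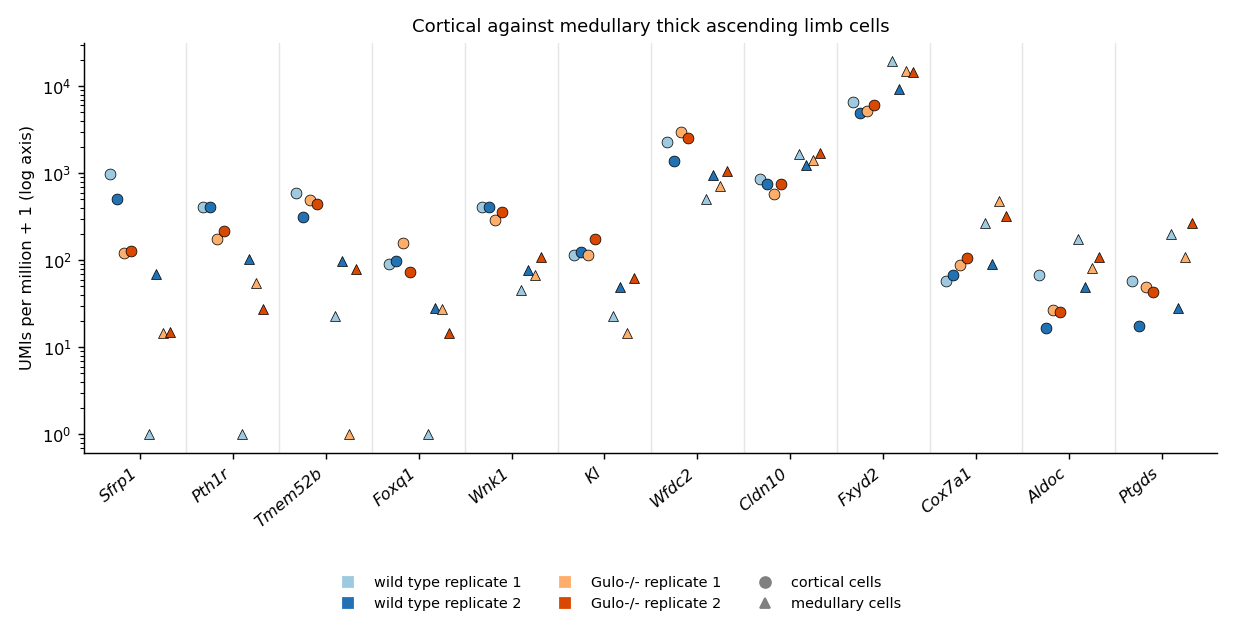
CPM plus 1 (log axis) of 12 genes called between cortical (circles) and medullary (triangles) thick ascending limb cells, by library. The first 7 genes were higher in cortical cells and the last 5 in medullary cells, and Sfrp1 and Pth1r were also higher in wild type than in Gulo-/- cortical cells; points at 1 are libraries with 0 UMIs.

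Cortical cells were a larger part of the cells in both Gulo-/- libraries. They made up 1.32% and 1.96% of kept cells in the wild type libraries (95% Wilson intervals 0.863 to 2.0% and 1.67 to 2.3%) and 4.05% and 16.8% in the Gulo-/- libraries (3.25 to 5.04% and 16.2 to 17.4%). The groups did not overlap, but the Gulo-/- libraries were far apart. The difference was 8.78 percentage points (two-sided exact permutation test, p = 0.333), and with 2 libraries a side no smaller p is possible. Without Gulo-/- replicate 2 the difference was 2.41 points. These intervals cover counting error only, and a change in the number of other cells, in the cells that survived preparation or in their RNA content cannot be told apart in such shares.

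The balance of cortical to medullary cells was not different beyond its spread. Cortical cells were 55.3% and 76.7% of thick ascending limb cells in wild type and 66.7% and 61.4% in Gulo-/-, so that the Gulo-/- values lay between the wild type ones (exact permutation p = 1). The rule counts UMIs, and depth moved the split. With each cell thinned to 1000 UMIs the shares were 35.9%, 44.0%, 57.9% and 48.8%, the groups no longer overlapped, and the difference went from -1.93 to 13.4 points (exact permutation p = 0.333).

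**Figure D3:**
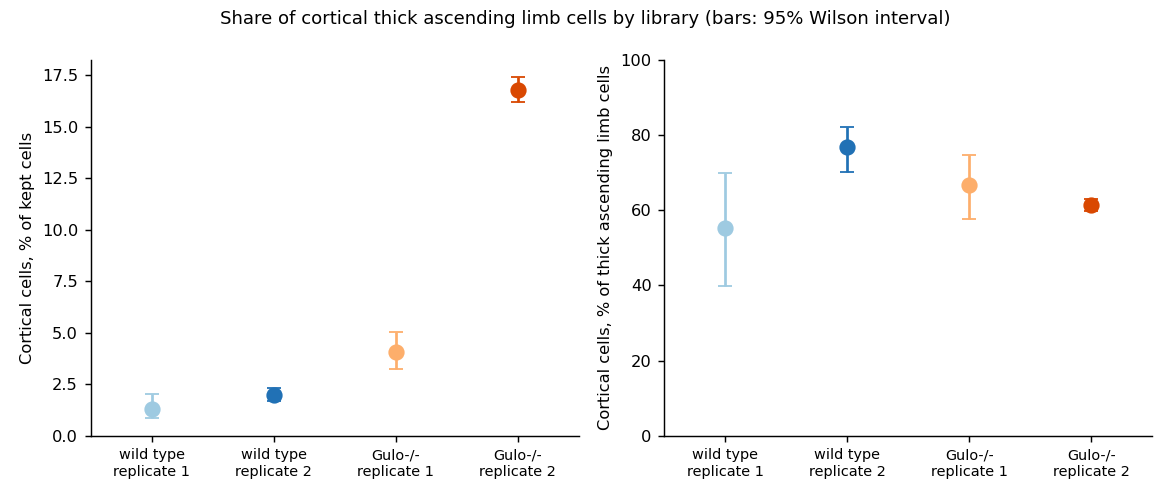
Cortical thick ascending limb cells as a percentage of kept cells (left) and of all thick ascending limb cells (right) in each library, with 95% Wilson intervals that cover counting error only. On the left the wild type libraries sit at 1.32% and 1.96% and the Gulo-/- libraries at 4.05% and 16.8%; on the right the 4 values overlap.

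Between genotypes, Sfrp1, Dusp9 and, in cells chosen without it, Egf were lower in the cortical cells of Gulo-/- kidneys, as were genes known mainly from the proximal tubule and red cells, such as Pck1 and Hba-a1. Of the immediate early genes 5 of 20 tested were higher. Of the genes lower in Gulo-/-, 17 of 26 were below their level in all kept cells and 9 were at or above it. Among all 5476 tested genes, 2767 were at or above that level. The salt transport genes were not called. The test was edgeR's quasi-likelihood F test on the UMI sums of 5476 genes, and 47 genes (0.858%) had an adjusted p under 0.05, of which 21 (0.383%) were higher and 26 (0.475%) lower in Gulo-/-. All 21 and 23 of the 26 had libraries that did not overlap between genotypes, as had 22.5% and 12.2% of all tested genes in those directions and 34.7% in either. The median of all tested genes was a log2 change of 0.01.

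These counts rest on few wild type cells. Without wild type replicate 2, 1 gene was called, and with a mitochondrial limit of 25%, which left 7, 20, 10 and 1179 cells, none was (87 of the tested genes had an unadjusted p under 0.05). With sex as a block 26 genes were called, 17 of them among the 47, and DESeq2 called 5, all among the 47.

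Egf, the growth factor made by this segment, was part of the rule and so was not tested in the cells it helped to choose. In those cells it stood at 7059 and 7215 CPM in wild type and at 2384 and 2786 in Gulo-/-, and the median cell had 50.8, 60.0, 18.8 and 22.3 Egf UMIs per 10000 UMIs. A rule without Egf, added after seeing these values, took 2494 cells. There Egf stood at 7065, 7491, 2401 and 2809 CPM, and it fell by 1.51 ± 0.22 on the log2 scale (edgeR, adjusted p = 0.0137 over 5043 genes, 16 called). The direction was kept in 9 of 9 further fits. The call was kept in 8 of them and was lost without wild type replicate 2 (adjusted p = 0.907). In medullary cells chosen the same way Egf stood at 1163, 3645, 496 and 921 CPM (log2 -1.76 ± 0.81, adjusted p = 0.806).

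Sfrp1, a secreted antagonist of Wnt signalling and the gene with the largest cortical excess over medullary cells, had the smallest p of the genotype comparison. It stood at 967 and 502 CPM in wild type and at 121 and 125 in Gulo-/- cortical cells, on sums of 86, 419, 33 and 1572 UMIs. The wild type values were far apart, and the Gulo-/- values were close together. It fell by 2.54 ± 0.31 (SE) on the log2 scale (edgeR, adjusted p = 0.000143), and 16 of 17 alternatives kept the call, including each library left out. The exception was the mitochondrial limit of 25%. In all kept cells together Sfrp1 was at 18.0, 21.4, 30.2 and 62.6 CPM, higher in the Gulo-/- libraries. The authors' deposited table lists Sfrp1 under DCT1 (50.5% of cells against 7.1% of others). The part of such cells in the fall was not tested. The gene lies at chr8:23411383-23449632 (GRCm38.p6).

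Dusp9 and Sostdc1, which these cells also held above the level of all kept cells in every library, fell as well. Dusp9, a phosphatase of MAP kinases, stood at 169, 85.0, 18.3 and 15.6 CPM (log2 -2.84 ± 0.41, adjusted p = 0.000781), and 15 of 16 alternatives kept its call. Sostdc1, a secreted antagonist of BMP and Wnt signals, stood at 2124, 1425, 557 and 1068 (log2 -1.13 ± 0.26, adjusted p = 0.0318). Its lowest wild type value was above its highest Gulo-/- value, but leaving out wild type replicate 1, wild type replicate 2 or Gulo-/- replicate 1 ended the call. Car4, a membrane-bound carbonic anhydrase, stood at 326, 143, 14.7 and 59.5 (log2 -2.19 ± 0.44, adjusted p = 0.0222). In all kept cells it stood at 75.7, 150.7, 47.8 and 48.2, so it was not above that level in every library. The authors' deposited table lists Car4 under the proximal tubule cluster PT3, with 56.7% of its cells against 20.2% of others. Proximal tubule markers, given further on, also summed lower in the Gulo-/- cells than in wild type replicate 2, and their part in the fall of Car4 was not tested.

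Atp4a, Aebp1 and Col5a2 were also called and are named here after their values were seen. Atp4a, the catalytic subunit of the gastric type proton pump, was at 169, 73.1, 33.0 and 24.4 CPM, Aebp1 at 78.7, 77.9, 25.7 and 22.8, and Col5a2 at 157, 98.2, 29.3 and 35.8. None of the 3 overlapped between genotypes.

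Tspan1, a tetraspanin of epithelial cells, stood at 56.2, 73.1, 231 and 295 CPM. It rose by 1.86 ± 0.35 on the log2 scale (edgeR, adjusted p = 0.0112), a call kept in 14 of 17 alternatives and lost without wild type replicate 2. In all kept cells Tspan1 stood at 7.32, 16.2, 90.2 and 239, higher in both Gulo-/- libraries. In the authors' deposited table it marks CD-PC (88.9% of cells) and DCT2 (81%) as well as LOH (62.8%). Principal cell markers in the members, given further on, were also higher in the Gulo-/- libraries, and their part in this rise was not tested. Gpx6, a glutathione peroxidase, stood at 157, 145, 308 and 463 (log2 1.32 ± 0.31, adjusted p = 0.0375), with both Gulo-/- libraries above both wild type ones. It was the only 1 of 31 tested antioxidant genes to be called, and the median of that list was -0.20. The call was lost without wild type replicate 1, without wild type replicate 2 or without Gulo-/- replicate 2. Gpx6 was also called in the medullary cells, by 1.54 ± 0.35 (adjusted p = 0.047).

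Immediate early genes, which are transcribed within minutes of a stimulus and are also known to be induced by tissue dissociation, had 5 of 20 tested members higher and none lower. Of the 20, 19 had a positive difference, and the median was 1.07. In medullary cells all 8 tested members were positive, with a median of 2.42, and Jun, Junb and Dusp1 were called higher. Junb stood at 78.7, 75.5, 194 and 282 CPM (log2 1.58 ± 0.35, adjusted p = 0.024). Jund stood at 45.0, 103, 297 and 277 (log2 1.62 ± 0.36, adjusted p = 0.0245). Both are partners of Fos in the AP-1 factor, and neither overlapped between genotypes. In all kept cells Junb stood at 103, 64.5, 329 and 504 and Jund at 122, 105, 379 and 464, also higher in both Gulo-/- libraries. In cortical cells Fos itself stood at 135, 104, 139 and 345 and Jun at 124, 104, 95.4 and 318. Both were highest in Gulo-/- replicate 2, and neither was called there by edgeR (adjusted p = 0.307 and 0.76).

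Dusp1, Zfp36 and Klf2 were the other 3 of these 5 and had 0 UMIs in wild type replicate 1, a library of 88970 UMIs in these cells in which 3 UMIs, the limit that a count of 0 allows, would be 33.7 CPM. Dusp1, a phosphatase that ends MAP kinase signals, stood at 0, 33.5, 84.3 and 136 CPM (log2 1.93 ± 0.47, adjusted p = 0.048). Zfp36, which destabilises cytokine mRNAs, stood at 0, 13.2, 103 and 60.7 (log2 2.57 ± 0.54, adjusted p = 0.0222), and Klf2, a transcription factor gene, at 0, 10.8, 51.3 and 60.0 (log2 2.46 ± 0.53, adjusted p = 0.0222). The calls of Dusp1, Zfp36, Klf2, Junb and Jund were all lost without wild type replicate 2. Those of Dusp1, Klf2 and Junb were also lost without Gulo-/- replicate 2, and that of Jund without wild type replicate 1. With sex as a block, Zfp36 and Jund kept their calls and Dusp1, Klf2 and Junb did not.

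Socs3, the feedback inhibitor of cytokine receptors that signal through STAT3, was the 1 called gene of 12 tested cytokine and SOCS genes. It stood at 0 and 3.59 CPM in wild type and at 33.0 and 37.6 in Gulo-/- cortical cells. The wild type values rest on 0 and 3 UMIs, so its fitted change of 3.35 ± 0.71 (adjusted p = 0.0222) depends on the prior count. The ratio of summed UMIs was 11.5, with a 95% counting interval of 3.92 to 56.1 that does not cover the spread between libraries. Sgk1, a kinase that raises sodium transport, stood at 0, 5.99, 33.0 and 40.4 CPM (log2 2.71 ± 0.64, adjusted p = 0.0369). Stat3 itself was at 56.2, 50.3, 84.3 and 91.0 and was not called (adjusted p = 0.903). S100a6, a calcium-binding protein gene raised in injured tubules, was at 11.2, 7.19, 88.0 and 41.9 (log2 2.73 ± 0.62, adjusted p = 0.0294) and was the 1 called gene of 17 tested injury and repair genes. Lcn2, a marker of tubular injury, stood at 0, 9.58, 84.3 and 37.0 and was not called (adjusted p = 0.0798), and Havcr1 had too few UMIs to test.

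Most of the genes higher in Gulo-/- were below the level of all kept cells in these cells: 18 of the 21 were, and 3 were at or above it. Among all 5476 tested genes, 2767 were at or above that level. Sgk1 was at 108, 22.2, 210 and 125 CPM in all kept cells, Klf2 at 158, 42.7, 396 and 232, and S100a6 at 49.8, 45.5, 384 and 224. In the authors' deposited table of cluster markers Klf2, Sgk1, S100a6, Cd200 and Dusp1 stand under the cluster named fEC (Sgk1 and Dusp1 under others too), and 92.1% of its cells had Klf2 against 9.7% of other cells. The 11 endothelial markers summed to 33.7 and 99.4 CPM in wild type cortical cells and to 180 and 173 in Gulo-/- ones. Of the 11, 8, 3, 0 and 0 were at 0. Only 3 of them could be tested, with 2 positive, 1 negative and 0 called. The part of RNA from other cells in these rises was not tested.

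**Figure D4:**
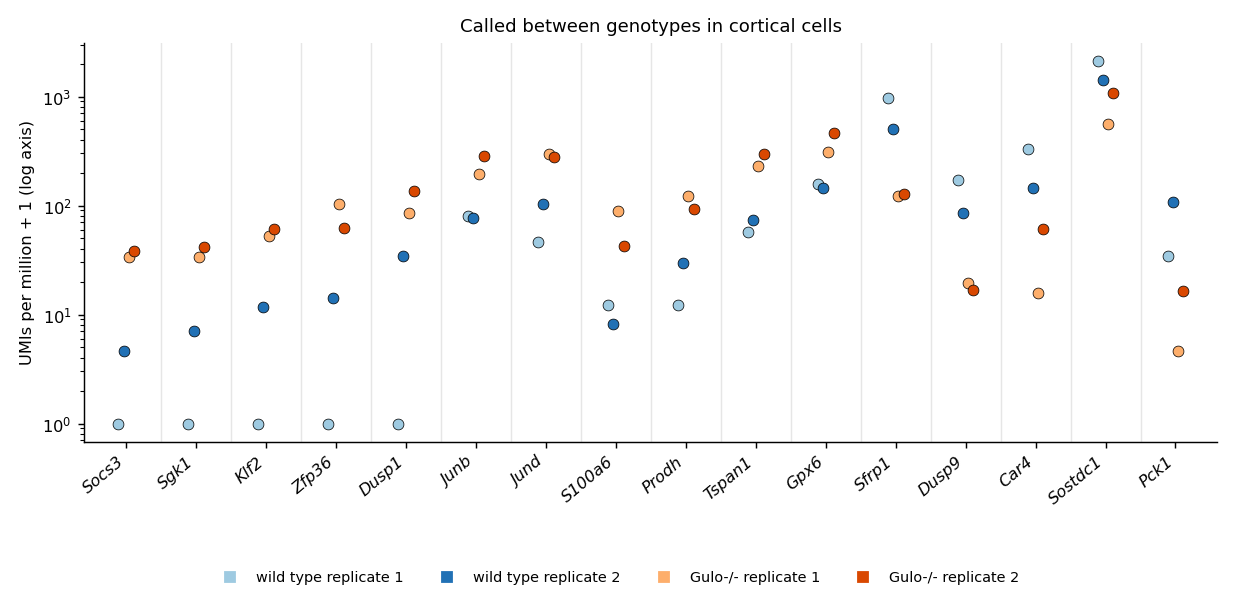
CPM plus 1 (log axis) in the cortical cells of each library for 16 genes called between genotypes. The first 11 genes were higher and the last 5 lower in Gulo-/-, no gene overlaps between genotypes, and points at 1 are libraries with 0 UMIs, as for Socs3 in wild type replicate 1.

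The sequence before the transcription start was examined for 4 short motifs in the genes that rose, to show where a factor of these pathways could bind. They were TTCNNNGAA (the STAT core), TGACGTCA (the cAMP response element), CCACACCC (a KLF core) and the serum response element, each on both strands in the 300 bases from 250 before to 50 after the start. The RefSeq table (GRCm38.p6) matched 14 of the 21 genes that rose and 16 of the 26 that fell. The STAT core was in 4 of the 14 (28.6%), in 0 of the 16, in 7.44% of the tested genes and in 9.55% of all promoters. The cAMP element was in 1 of the 14 (7.14%), against 3.86% of the tested genes and 2.03% of all promoters, and the KLF core and the serum response element were in none (4.24% and 0.0234% of the tested genes, 4.09% and 0.0777% of all promoters). Other forms of the serum response element were not searched. The form used was in 1 of 4272 matched tested genes, so its absence from 14 genes says little. The motifs were picked after the called genes were known. The 30 bases around each match follow, 5′ to 3′ on the gene's own strand, with the motif in capitals, since Socs3, Zfp36, Sgk1 and Prodh are the genes that share it.
Socs3, chr11:117969501-117969530, minus strand: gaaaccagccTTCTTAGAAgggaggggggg
Zfp36, chr7:28379226-28379255, minus strand: acagcctgacTTCTGCGAAccgacagtcgg
Sgk1, chr10:21881951-21881980, plus strand: gaaaaaccaaTTCAAAGAAccctcccaagg
Prodh, chr16:18089228-18089257, minus strand: taggtggggcTTCCGGGAAtggggcgtgat
Dusp1, chr17:26508597-26508626, minus strand: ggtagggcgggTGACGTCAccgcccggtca
The matches begin 154, 17, 223, 57 and 143 bases before the start. For Sgk1 this is the start at the outer end of the gene (chr10:21882184). The authors' deposited table also places promoter regions of Sgk1 at chr10:21978440 and chr10:21992675, -20 and 452 bases from a start. A gene counted as having a motif if any of its listed starts had it. These are matches of letters in genes picked for their change, and the binding of a factor was not measured.

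Further called genes that fell are known mainly from other cell types. Pck1, Pecr, Cndp2, Glyat, Ldhd and Fmo1 are genes of proximal tubule metabolism, and Hba-a1 and Hba-a2 encode haemoglobin. Pck1, the gluconeogenic enzyme gene, stood at 33.7, 108, 3.67 and 15.3 CPM in cortical cells and at 1007, 674, 192 and 47.3 in all kept cells. Pecr stood at 22.5, 134, 11 and 16 in cortical cells against 525, 650, 130 and 47.5 in all kept cells. Both were lower in Gulo-/- in both populations, and highest in wild type replicate 2 within cortical cells. Of 12 tested proximal tubule markers all 12 had a negative difference and 3 were called (Miox, Fbp1 and Pck1), with a median of -1.72. Their 15 genes summed to 888, 5796, 726 and 1258 CPM in cortical cells and to 31974, 38070, 13613 and 4277 in all kept cells. Hba-a1 stood at 22.5, 101, 18.3 and 9.57, and its reads can be shared with its near-identical copy Hba-a2. The MHC class II genes H2-Ab1 and H2-Eb1, which mark antigen-presenting cells, were 2 of 10 tested antigen presentation genes and both fell, H2-Ab1 with libraries that overlapped between genotypes, while the 8 macrophage markers summed to 33.7, 303, 29.3 and 149. The part of RNA from such cells in these falls was not tested.

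**Figure D5:**
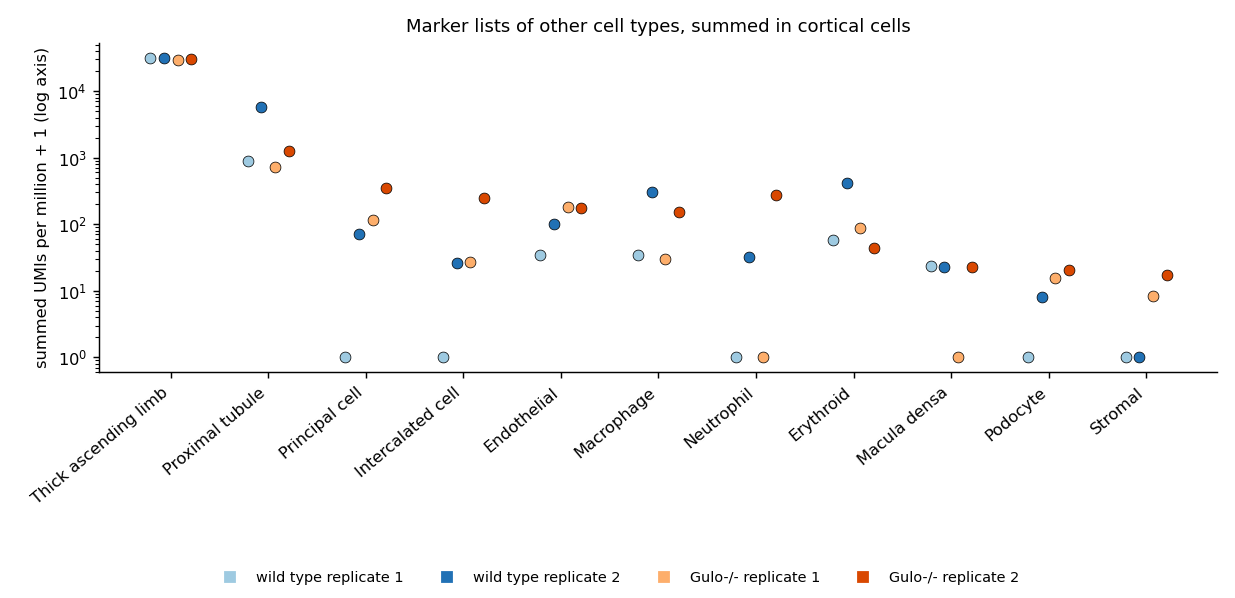
Summed CPM plus 1 (log axis) of marker lists of other cell types in the cortical cells of each library, with the thick ascending limb list for scale. The thick ascending limb list lies between 28847 and 31752 in all 4 libraries and includes Slc12a1, Umod, Egf and Wfdc15b, which chose the cells. The principal cell list includes Aqp2, which the rule limited. Proximal tubule markers reach 5796 in wild type replicate 2 and 726 to 1258 elsewhere, and stromal and podocyte markers stay at or below 19.7.

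Collecting duct and white cell markers also differed between libraries. Principal cell markers summed to 0, 70.7, 114 and 354 CPM, intercalated cell markers to 0, 25.2, 25.7 and 250, and neutrophil markers to 0, 31.1, 0 and 277, all highest in Gulo-/- replicate 2. The principal cell sum includes Aqp2, which the rule limited and which stood at 0, 27.5, 47.7 and 193. The 5 macula densa markers, of the plaque that ends this segment, summed to 22.5, 21.6, 0 and 22.1, with 3, 1, 5 and 0 of them at 0, and none could be tested. Doublet scores marked 0, 11, 1 and 282 of the members, and with those cells removed 44 genes were called, 40 of them among the 47.

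The machinery of salt transport did not pass the test in either direction. On simulated data the genotype fit called 22 of 62 genes changed by 2 on the log2 scale, so genes not called may still differ. Of 12 tested genes outside the rule 0 were called by edgeR at an adjusted p under 0.05, 6 were positive and 6 negative, and the median was 0.03. Of 14 tested claudin and divalent cation genes 0 were called as well, with a median of -0.09. Of 12 tested kinases and regulators of NKCC2 only Sgk1 was called, and Wnk1 stood at 405, 411, 286 and 354.

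Genes that depend on or transport vitamin C were also not called. Of 42 listed, 16 had enough UMIs to test and 0 passed, with a median of -0.16. Phyh, an ascorbate-using hydroxylase of phytanoyl-CoA, stood at 281, 242, 91.7 and 217 CPM (log2 -0.71 ± 0.34, adjusted p = 0.78). Of 14 tested DNA methylation and m6A enzyme genes 0 were called, and of 55 respiratory chain genes 0 were called, with 40 negative and a median of -0.12. Of 36 tested citrate cycle and fatty acid oxidation genes 28 were negative and 0 were called, with a median of -0.28. Of 14 tested basement membrane and matrix genes 13 were positive and 0 were called, with a median of 0.61. Over all tested genes 344 had an unadjusted p under 0.05.

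Ribosomal protein genes showed 1 call among 55, Rps27, at 1146, 854, 2362 and 1752 CPM (log2 1.05 ± 0.24, adjusted p = 0.0285). It did not overlap between genotypes, but the call was lost without wild type replicate 1, without wild type replicate 2 or without Gulo-/- replicate 1. The list's median was 0.10. Rpl6l, Rpl27-ps3 and Rpl10-ps3, near copies of ribosomal protein genes, were among the 12 largest rises, by 2.39, 2.14 and 1.78. Counting may divide reads between such copies and their parent genes, so these are uncertain.

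The genotype difference was compared between cortical and medullary cells in a fit with the library as a block. Of 2827 genes 2 (0.0707%) were called, Car4 and Fos. On simulated data this fit called 0 of 34 genes changed by 2 on the log2 scale and 3 of 46 changed by 3. Genes not called may therefore still differ. In medullary cells on their own 10 of 1196 genes (0.836%) were called, 9 higher in Gulo-/- (0.753%) and 1 lower (0.0836%), from 15, 30, 28 and 1291 cells. Car4 stood at 326, 143, 14.7 and 59.5 CPM in cortical and at 307, 124, 107 and 186 in medullary cells. In wild type the 2 segments were close, and in Gulo-/- the cortical values were below the medullary ones (log2 -1.93 ± 0.35, adjusted p = 0.00026). Fos stood at 132, 0, 228 and 644 in medullary cells and had 0 UMIs in wild type replicate 2 there. Its genotype difference was 2.82 lower in cortical cells on the log2 scale (± 0.58, adjusted p = 0.00569). Sfrp1 gave no such difference that passed (log2 -0.48 ± 0.55, adjusted p = 0.999), and it did not pass the filter on low counts in medullary cells alone.

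Bulk bisulfite sequencing of the same kidneys, cut up and divided over the assays, gives methylation at these genes for the whole organ only. The authors' deposited table lists regions with a mean methylation on side 1 and side 2 and no genotype for either. It places a region of 22 CpGs at the promoter of Sfrp1 (mm10 chr8:23411559-23411804), with 18.4% on side 1 and 29.8% on side 2. At Sostdc1 a promoter region of 12 CpGs (chr12:36314416-36315045) had 25.8% and 47.9%. At Car4 a promoter region of 14 CpGs (chr11:84957216-84957558) had 22.1% and 37.8%, and at Socs3 promoter regions had 11.6% and 21.4%, and 12.8% and 21.3%. Side 1 was lower in these regions, as it was in 78.5% of the 7867 promoter regions of that table. At Sgk1 1 promoter region had 91.1% and 75.7%, and another 9.59% and 24.9%. Of the 47 called genes 38.3% had a promoter region, against 35.4% of the 5476 tested. The values have no replicate error and are not specific to these cells.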

How the data were processed

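The 4 single-cell libraries of mouse kidney were used. The deposited matrices hold whole-number UMI counts for each barcode, unnormalized per their values; the sources used here name no counting tool. The submitters' processing notes name build mm10, Seurat 2.3.4 and MACS2 2.1.2. In the authors' deposited table of regions, methylation is a fraction from 0 to 1 on each side, printed as percent, with their difference as a score. The authors' deposited marker table gives shares of cells as fractions, a natural log ratio and a p-value with cells as units. Other assays were not analysed here.

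Cells needed at least 500 UMIs, 200 genes and at most 50% mitochondrial UMIs. No kept cell had fewer than 1000 UMIs, so the alternative limit of 1000 UMIs per cell repeated the main fit. Depth was 10208946, 61688164, 10073836 and 88925323 UMIs in all, and precision is set by the 21 to 2345 member cells per library. UMIs were summed per library and segment, and CPM are those sums per 1000000 UMIs. Fits used edgeR 4.0.16 (TMM, filterByExpr, robust quasi-likelihood F test) in R 4.3.3, with Benjamini-Hochberg adjustment over all tested genes and a threshold of 0.05. SE is the log2 change divided by the square root of F. DESeq2 1.42.0 was an alternative, with normalization, filters, blocks, left-out libraries and cell limits. Doublets were scored with Scrublet in scanpy 1.11.5 and kept; the highest scores up to 0.8% per 1000 cells were removed as an alternative. Each fit was tested on simulated data with a dispersion of 0.1. The genotype fit called 22 of 62 tested genes changed by 2 on the log2 scale and 54 of 66 changed by 3. The segment fit called 28 of 28 and 31 of 31, and the interaction fit 0 of 34 and 3 of 46.

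Members, lists and tests were chosen with earlier results of these data known. Named were the 12 largest changes per direction among called genes whose libraries did not overlap (for segments, with 1 direction in every library), every called list member whether or not it overlapped, up to 4 others per list as values, and for the interaction the 6 smallest p past the threshold. Gene models without a name, 5 of the 47, were only counted. Some genes that the rule would name are not reported here.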

Additional observations from a re-analysis of the deposited data

Results flagged for a closer look

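Car4 had a genotype difference in cortical cells that was 1.93 lower on the log2 scale than in medullary cells (interaction -1.93 ± 0.35 SE, edgeR adjusted p = 0.00026). The cortical values were 326 and 143 CPM in wild type and 14.7 and 59.5 in Gulo-/-, on 29, 119, 4 and 746 UMIs, and the medullary values were 307, 124, 107 and 186. It was past the threshold in 6 of 10 alternatives, and was lost without wild type replicate 2 and without Gulo-/- replicate 2.

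Fos had an interaction of -2.82 ± 0.58 (SE, adjusted p = 0.00569), from cortical values of 135, 104, 139 and 345 CPM and medullary values of 132, 0, 228 and 644. It was past the threshold in 5 of 11 alternatives, whose values ran from -12.6 to -0.98, and was lost without the same 2 libraries. The wild type medullary values come from 15 and 30 cells.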

How the results depend on the processing

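Counts of genes called depended on the setting. For genotype (47 genes), 156 were called with the replicate block, all 47 among them; same-numbered libraries deviated with r = 0.063 over genes, so the numbers are not taken as pairs. The other counts were 26 with sex as a block, 137 in all thick ascending limb cells, 5 with DESeq2, 144 with no filter on low counts, 0 at the mitochondrial limit of 25%, 28 with a segment margin of 2 UMIs, 16 with thick ascending limb genes at 2% of UMIs, and, added after seeing the data, 16 without Egf in the rule and 7 among genes at least as high as in all kept cells, a filter that the change itself can decide. Leaving out 1 library gave 1 (without wild type replicate 2) to 144 (without Gulo-/- replicate 1). For segments (146), the counts were 13 with no library block, 61 with DESeq2, 411 with no filter, 8 at 25% mitochondrial UMIs, and 25 (without Gulo-/- replicate 2) to 306 (without Gulo-/- replicate 1) with 1 library left out. For the interaction (2), they were 0 with DESeq2 (19 at an unadjusted p under 0.05), 1 at 25%, 0 at 2% of UMIs (53 unadjusted), 4 without doublets, and 0 (without Gulo-/- replicate 2, 103 unadjusted) to 6. Where 1 library was left out, the lone one of its genotype was assumed to vary like the other pair. The cortical share of thick ascending limb cells, -1.93 points, was 13.4 after thinning, and from -12.6 (without wild type replicate 1) to 8.78 (without wild type replicate 2) with 1 library left out, and 0.693 without Gulo-/- replicate 2. The causes were not tested. Of the genes run under the alternatives (30 and Egf for genotype, 65 for segments, 2 for the interaction; Atp4a, Aebp1, Col5a2, Hba-a2, Miox and Fbp1 were not run) none changed direction: 342 values for genotype kept their call and 141 lost it, as did 550 and 187 for segments and 11 and 10 for the interaction. The alternative of at least 1000 UMIs per cell removed no cell and repeated the main fit, so its outcome was fixed. It makes up 30 of the kept values for genotype and 65 of those for segments. Depth limits low genes most in wild type replicate 1, with 88970 UMIs in these cells.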
